A study of Mus musculus with 6 samples.

Results

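The 53 genes described here are transcribed mainly in dividing cells. They comprise 16 genes of DNA replication and of nucleotide supply for S phase, 30 genes of mitosis, 5 transcription factors of the cell cycle and the 2 cyclin E genes. They were taken as a named list, with no threshold on the measurements, from the 45777 genes measured by RNA sequencing in splenic CD4+ T cells that carried Lrig1, a transmembrane protein, on their surface (CD4+Lrig1+, or Lrig1+ cells) and in those that did not (CD4+Lrig1-, or Lrig1- cells). Both groups were isolated by flow cytometry from the spleens of female C57BL/6 mice, an inbred laboratory strain, at 7 weeks of age. They differed by the Lrig1 gate, and no treatment or altered allele is named for either. The analysis used 2 libraries of each group, held as 1 CD4+Lrig1+ and 1 CD4+Lrig1- library in each of 2 tables, called set 1 and set 2 here. The sources used here do not say whether the libraries came from separate or pooled mice. The p-values below therefore rest on the spread between libraries and cannot be read as a spread between mice.

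A cell that enters the cycle first loads the MCM helicase at its replication origins, then fires those origins in S phase, and after DNA synthesis builds up the cyclins, kinases and motors that carry it through mitosis. Transcription of the replication genes peaks around the entry into S phase and is controlled by E2F factors, whereas the mitosis genes peak later and are controlled through the MuvB complex with B-Myb and Foxm1. In the spleen of a resting mouse most CD4+ T cells are quiescent, and regulatory T (Treg) cells are known to contain a larger dividing fraction than naive T cells. In sorted bulk samples, more dividing cells and more of these transcripts per cell cannot be told apart.

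The promoters of both groups carry short letter patterns by which they are recognised, and 6 are shown because the results below turn on these genes. Sequences are from RefSeq (build GRCm38.p6), run 5′ to 3′ on the strand of the gene and end at the last base before the gene's locus, so that they hold no transcribed base. Capitals mark the letters of the E2F motif (TTTCCCGC, TTTCGCGC, TTTGCCGC or TTTGGCGC, on either strand) and of the cell cycle homology region, CHR (TTTGAA, on either strand). *Mcm5*, at chr8:75109349-75109467 on the plus strand, and *Mcm6*, at chr1:128359706-128359825 on the minus strand, encode helicase subunits and hold E2F letters. *Kif15*, at chr9:122951001-122951080 on the plus strand, encodes a spindle motor and holds an E2F motif directly followed by a CHR. *Mki67*, at chr7:135716451-135716499, *Cdk1*, at chr10:69352913-69352992, and *Top2a*, at chr11:99024200-99024269, all on the minus strand, are mitosis genes and hold CHR letters.
Mcm5: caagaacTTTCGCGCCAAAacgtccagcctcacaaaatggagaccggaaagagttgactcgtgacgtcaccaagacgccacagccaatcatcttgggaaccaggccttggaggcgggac
Mcm6: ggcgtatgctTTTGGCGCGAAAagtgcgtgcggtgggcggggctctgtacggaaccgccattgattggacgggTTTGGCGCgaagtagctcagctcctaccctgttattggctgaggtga
Kif15: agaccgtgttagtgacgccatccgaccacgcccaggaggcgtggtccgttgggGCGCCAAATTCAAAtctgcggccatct
Mki67: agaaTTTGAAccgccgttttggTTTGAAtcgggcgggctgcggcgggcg
Cdk1: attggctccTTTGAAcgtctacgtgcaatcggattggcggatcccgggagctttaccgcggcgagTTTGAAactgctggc
Top2a: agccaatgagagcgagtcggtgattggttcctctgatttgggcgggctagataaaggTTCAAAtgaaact

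The letters differed in frequency by role. RefSeq windows from 250 bases before to 50 bases after the start were at hand for 45 of the 53 genes. The CHR letters were found in 20 of 26 mitosis genes (76.9%) and in 2 of 14 replication genes (14.3%), against 20.2% of all 27025 genes with a window. The E2F letters were found in 6 of 14 replication genes (42.9%), namely *Cdc6*, *Mcm3*, *Mcm5*, *Mcm6*, *Mcm7* and *Uhrf1*, in 2 of 26 mitosis genes (7.69%), *Cdk1* and *Kif15*, and in 2.6% of all genes. The CCAAT box (CCAAT on either strand) was as frequent in replication genes (78.6%) as in mitosis genes (76.9%), and was present in 41.1% of all genes. No E2F match overlapped a CHR match, and the CCAAT letters overlapped an E2F match in 1 gene and a CHR match in 1 gene. Further genes of both processes, listed by hand, showed the same split, with CHR letters in 32 of 54 mitosis and 6 of 38 replication genes and E2F letters in 5 of 54 and 12 of 38. Of the 24 genes among the 53 with a CHR match, 14 had one before the start, as had 7 of the 9 with an E2F match. A match is a description of the sequence and does not show that a factor binds there.

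**Figure D1:**
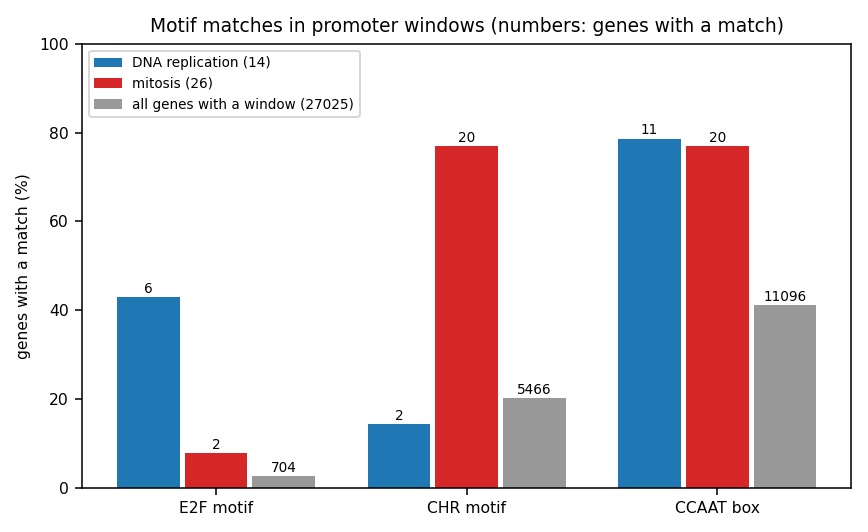
The y axis gives the percentage of genes with at least 1 match in the promoter window for the E2F motif, the CHR motif and the CCAAT box, with the number of genes above each bar. The CHR bar is highest for the mitosis genes (76.9%), the E2F bar for the replication genes (42.9%), and the CCAAT bars of these groups are nearly level.

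The libraries held 48384980 (Lrig1+) and 44865070 (Lrig1-) estimated counts on genes in set 1, and 59402441 and 59977951 in set 2. Counts were summed per gene, scaled by the TMM method, which aligns the bulk of the genes between libraries, and are given as CPM (counts divided by the scaled library total, then set to a common scale). All 53 genes were among the 16123 that passed the filter on low counts. Library values are given in the order Lrig1+ and Lrig1- of set 1, then Lrig1+ and Lrig1- of set 2.

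Most of the cell cycle genes had higher levels in Lrig1+ than in Lrig1- cells. The log2 ratio of the groups was above 0 in both sets for 48 of the 53 genes, against 35.9% of all genes tested. It was below 0 in both for *Kif23* and *Ndc80* (41.3% of all genes), and *Mcm4*, *Pcna* and *Aurka* were above 0 in set 1 and below it in set 2. The median log2 ratio of the 53 genes was 1.07 in set 1 and 0.68 in set 2, against 0.0052 and -0.06 over all genes tested. Both Lrig1+ libraries lay above both Lrig1- libraries for 35 genes (14.3% of all genes) and below them for 1, *Kif23* (11.8% of all genes). At least a 2-fold higher level in both sets was found for 11 of the genes, 4 of replication and 7 of mitosis, against 7.37% of all genes.

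edgeR's quasi-likelihood test on all 4 libraries, without regard to the set, called 0 of the 53 genes in either direction at a Benjamini-Hochberg adjusted p under 0.05. It called 0 of all 16123 genes as well (0.0% in each direction), so that it gives no reading of these genes in particular. The smallest adjusted p among the 53 in this test was 0.649, and at an unadjusted p under 0.05 it had 7 of them higher and 0 lower (4.18% and 1.41% of all genes). The same test with a term for the set, here called the set term, compares the groups within each set and called 35 of the 53 higher and 1 lower, *Kif23*, against 14.6% and 12.8% of all genes. The DESeq2 Wald test without the set term called 1 gene, *Kif15* (adjusted p = 0.0497), and 0 lower, against 1.61% and 0.31% of all genes, and edgeR's exact test called 0 of the 53 in either direction, against 1.11% of all genes higher and 0.0868% lower. The fit with the set term has 1 residual degree of freedom. edgeR's quasi-likelihood test draws the spread of each gene toward that of all genes, so its p-values and standard errors also rest on other genes. An exact permutation test of 2 against 2 libraries cannot go below p = 0.333. In what follows, "rose" and "fell" are used for genes that passed the test with the set term, whose log2 fold changes are given with standard errors and whose adjusted p-values are from edgeR's quasi-likelihood test.

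**Figure D2:**
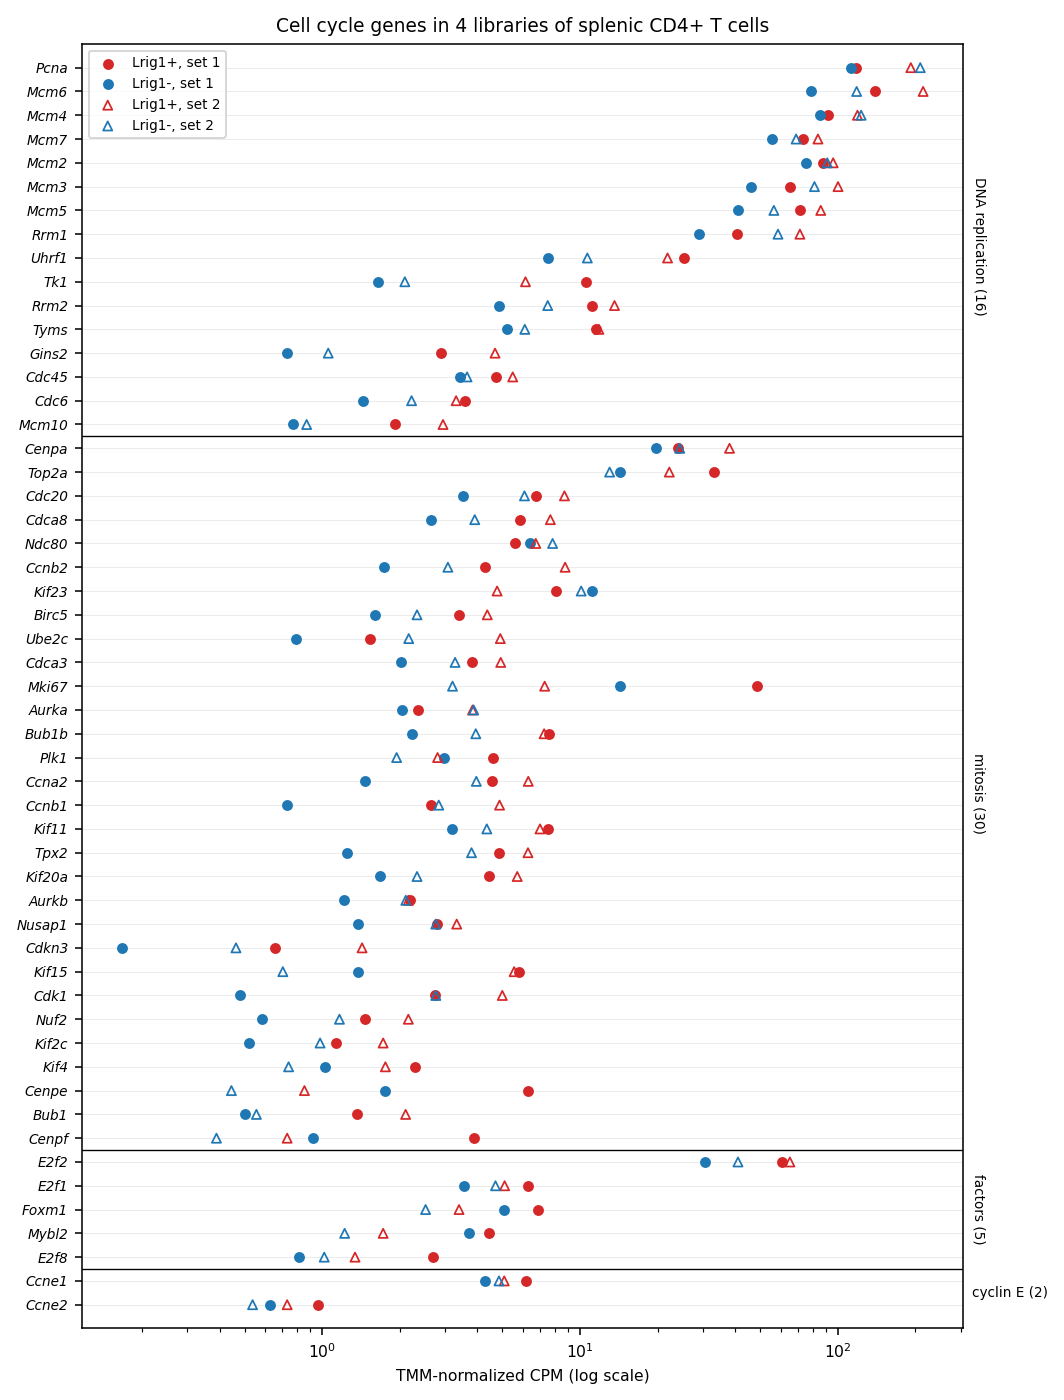
The x axis gives the TMM-normalized CPM of each of the 53 genes (log scale), with filled circles for set 1, open triangles for set 2, red for Lrig1+ and blue for Lrig1- cells, ordered within each group by mean FPKM. Red lies to the right of blue within both sets for 48 genes, and the sets themselves are far apart for *Mki67*, *Cenpe* and *Cenpf*.

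Of the 16 replication genes, 14 were higher in both sets and 12 rose (87.5% and 75.0%, against 35.9% and 14.6% of all genes). The median log2 ratio of the replication genes was 0.81 in set 1 and 0.59 in set 2. Their summed level was 760 against 549 CPM in set 1 and 1033 against 841 CPM in set 2, which is 1.38-fold and 1.23-fold.

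The 6 subunits of the MCM2-7 ring, the helicase that unwinds DNA at the replication fork, were among the most abundant genes of the list. *Mcm6* had 140, 78.6, 214 and 118 CPM. Its groups did not overlap, and it rose by 0.84 ± 0.07 on the log2 scale (adjusted p = 0.000225). *Mcm5* had 71.3, 41.1, 85.9 and 56.5 CPM, again without overlap, and rose by 0.70 ± 0.08 (adjusted p = 0.000884). *Mcm7* had 73.5, 55.4, 83.8 and 69.0 CPM and rose by 0.34 ± 0.07. *Mcm3* had 65.1, 46.1, 100 and 81.2 CPM and rose by 0.40 ± 0.08, although its Lrig1- library of set 2 lay above the Lrig1+ library of set 1. The remaining subunits moved little. *Mcm2* had 87.6, 75.1, 96.0 and 91.1 CPM (log2 fold change 0.15 ± 0.07, adjusted p = 0.182). *Mcm4* had 91.5, 85.4, 119 and 123 CPM (0.03 ± 0.07, adjusted p = 0.841), higher in Lrig1+ cells in set 1 and lower in set 2. Subunits of 1 ring thus ran from a ratio of 1.07 to 1.78 in set 1 and from 0.968 to 1.81 in set 2.

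Of the factors that load and activate the ring, those in the list, *Gins2*, *Mcm10*, *Cdc6* and *Cdc45*, were present at far lower levels. *Gins2*, a subunit of the GINS complex that completes the active helicase, had 2.88, 0.731, 4.68 and 1.06 CPM. Its Lrig1+ libraries were 3.95-fold and 4.44-fold above their partners, and it rose by 2.07 ± 0.28 (adjusted p = 0.00184). *Mcm10*, which acts in helicase activation, and *Cdc6*, which loads the ring, also rose, by 1.54 ± 0.33 and 0.94 ± 0.29. *Cdc45*, the third component of the active helicase, did not pass the test, at 4.73, 3.43, 5.48 and 3.65 CPM (0.53 ± 0.19, adjusted p = 0.0799), and its groups did not overlap. Such factors outside the list did not all share the low level or the rise. *Cdt1* had 32.8, 41.4, 31.2 and 40.2 CPM and fell by 0.35 on the log2 scale. *Gins4* had 23.5, 18.8, 33.7 and 36.2 CPM and did not pass the test (0.10 ± 0.12). *Gins1* was low, at 2.21, 1.21, 3.15 and 2.28 CPM, and did not pass it either (0.66 ± 0.28).

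*Pcna*, the sliding clamp that tethers polymerases to DNA, was the most abundant of the 53 genes and did not differ beyond the spread of the libraries. It had 118, 112, 192 and 209 CPM, a ratio of 1.05 in set 1 and 0.919 in set 2, and a log2 fold change of -0.02 ± 0.08 (adjusted p = 0.863). The difference between its sets was larger than that between its groups. A pseudogene of it, *Pcna-ps2*, is also listed in the tables, so that reads may have been divided between them.

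The genes that keep DNA methylation and supply nucleotides in S phase mostly rose. *Uhrf1*, which reads hemimethylated DNA behind the fork, had 25.4, 7.52, 21.9 and 10.7 CPM and rose by 1.39 ± 0.17 (adjusted p = 0.00119). *Tk1*, the thymidine kinase of the salvage route, had 10.6, 1.65, 6.15 and 2.09 CPM and rose by 2.11 ± 0.28. *Tyms*, which makes thymidylate de novo, had 11.5, 5.22, 11.8 and 6.11 CPM and rose by 1.05 ± 0.14. In each of these genes the Lrig1+ libraries lay above the Lrig1- libraries. The large and small subunits of ribonucleotide reductase, *Rrm1* and *Rrm2*, rose by 0.38 ± 0.09 and 1.02 ± 0.14, the abundant large subunit by less. With *Pcna*, these 6 genes had a median log2 ratio of 1.16 in set 1 and 0.90 in set 2, against 0.45 and 0.29 for *Mcm2* to *Mcm7*.

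Of the 30 mitosis genes, 27 were higher in both sets, 22 rose and 1 fell. As shares these are 90.0%, 73.3% and 3.33%, against 35.9%, 14.6% and 12.8% of all genes. The median log2 ratio of the mitosis genes was 1.22 in set 1 and 0.82 in set 2. Their summed level was 214 against 104 CPM in set 1 and 189 against 120 CPM in set 2, which is 2.07-fold and 1.58-fold.

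*Mki67*, which coats mitotic chromosomes and encodes the proliferation marker Ki-67, had 48.8, 14.3, 7.30 and 3.20 CPM. It was 3.40-fold higher in Lrig1+ cells in set 1 and 2.28-fold higher in set 2, and it rose by 1.52 ± 0.15 (adjusted p = 0.00044). The groups nevertheless overlapped, since the Lrig1- library of set 1 lay above the Lrig1+ library of set 2, and the test without the set term gave an adjusted p of 1.00 (edgeR's quasi-likelihood test). In that fit its log2 fold change was 1.68, and it was -0.25 without the Lrig1+ library of set 1. *Top2a*, the topoisomerase that untangles sister chromatids, had 33.1, 14.3, 22.2 and 13.0 CPM, without overlap, and rose by 0.99 ± 0.13.

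Among the cyclins, kinases and checkpoint genes, 7 of 10 rose (70.0%, against 14.6% of all genes). *Cdk1*, the kinase that drives entry into mitosis, had 2.73, 0.480, 4.997 and 2.76 CPM and rose by 1.55 ± 0.40 (adjusted p = 0.026). Its ratio was 5.68 in set 1 and 1.81 in set 2, and the Lrig1+ library of set 1 was just below the Lrig1- library of set 2. Its partner cyclins rose with it. *Ccnb1* had 2.63, 0.731, 4.88 and 2.83 CPM and rose by 1.25 ± 0.32, with overlapping groups. *Ccnb2* had 4.27, 1.73, 8.76 and 3.07 CPM and rose by 1.41 ± 0.19. *Ccna2*, the cyclin of S phase and early mitosis, had 4.54, 1.46, 6.30 and 3.96 CPM and rose by 1.11 ± 0.27. In *Ccnb2* and *Ccna2* the groups did not overlap.

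The spindle checkpoint, which holds the cell until every chromosome is attached, was represented by *Bub1* and *Bub1b*. *Bub1* had 1.37, 0.501, 2.11 and 0.556 CPM and rose by 1.69 ± 0.39. *Bub1b* had 7.56, 2.23, 7.26 and 3.94 CPM and rose by 1.30 ± 0.24. Neither overlapped between groups. *Cdkn3*, a phosphatase of the cyclin-dependent kinases, rose by 1.76 ± 0.49 on the lowest counts of the list, down to 8 estimated counts in the Lrig1- library of set 1. The mitotic kinases *Aurka*, *Aurkb* and *Plk1* did not pass the test, with log2 fold changes of 0.09 ± 0.23, 0.43 ± 0.33 and 0.58 ± 0.23. *Aurka* was nearly level between groups in set 2, at 3.83 and 3.87 CPM.

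The genes of mitotic exit all rose. *Cdc20*, which activates the anaphase-promoting complex, had 6.77, 3.53, 8.71 and 6.09 CPM and rose by 0.72 ± 0.17. *Ube2c*, the ubiquitin-conjugating enzyme of that complex, had 1.54, 0.794, 4.91 and 2.17 CPM and rose by 1.08 ± 0.27, with overlapping groups. *Cdca3*, which promotes the breakdown of an inhibitor of mitotic entry, had 3.83, 2.03, 4.93 and 3.28 CPM and rose by 0.75 ± 0.22.

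Of the 7 centromere and kinetochore genes, 5 rose (71.4%, against 14.6% of all genes). *Cdca8*, borealin of the chromosomal passenger complex, had 5.85, 2.65, 7.68 and 3.91 CPM, without overlap, and rose by 1.05 ± 0.18. *Birc5*, survivin of the same complex, rose by 0.99 ± 0.24. *Cenpa*, the centromeric histone H3 variant, had 24.1, 19.7, 38.0 and 24.4 CPM and rose by 0.47 ± 0.11, its groups meeting near 24 CPM. *Cenpe*, a motor of the kinetochore, had 6.29, 1.75, 0.853 and 0.444 CPM and rose by 1.47 ± 0.33, with the sets far apart. *Ndc80* and *Nuf2* encode partner subunits of the complex that grips microtubules, yet their values ran opposite ways. *Ndc80* had 5.61, 6.41, 6.74 and 7.83 CPM (-0.20 ± 0.15, adjusted p = 0.364), lower in Lrig1+ cells in both sets, whereas *Nuf2* had 1.46, 0.585, 2.16 and 1.17 CPM (1.09 ± 0.35, adjusted p = 0.0563). Neither passed the test.

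The spindle motors held both ends of the list. *Kif15*, a plus-end motor that keeps the spindle bipolar, had 5.79, 1.38, 5.55 and 0.704 CPM. It was 4.20-fold and 7.89-fold higher in Lrig1+ cells, without overlap, and rose by 2.50 ± 0.29 (adjusted p = 0.000887), the largest log2 fold change of this fit among the 53 genes, although *Tk1* and *Cdk1* had larger ratios in set 1. *Kif11*, the main motor of spindle bipolarity, had 7.50, 3.17, 7.00 and 4.35 CPM and rose by 0.96 ± 0.20. *Kif20a*, which acts in the central spindle and cytokinesis, had 4.44, 1.67, 5.71 and 2.33 CPM and rose by 1.35 ± 0.21.

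*Kif23*, a central spindle motor needed for cytokinesis, went the other way. It had 8.08, 11.1, 4.77 and 10.1 CPM, so both Lrig1+ libraries lay below both Lrig1- libraries, and it fell by 0.76 on the log2 scale (standard error 0.18, adjusted p = 0.0178). Its counts were spread over 6 transcripts by the authors' assembly, with several of them at 0 in single libraries.

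**Figure D3:**
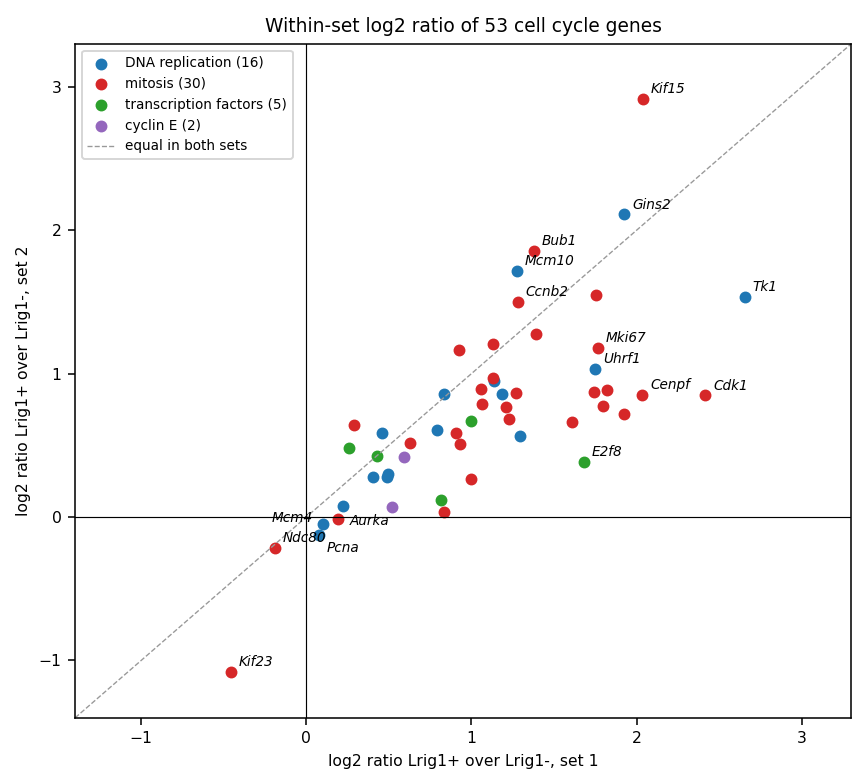
The axes give the log2 ratio of Lrig1+ over Lrig1- cells in set 1 (x) and set 2 (y) for the 53 genes, coloured by group, with a dashed line where both sets are equal. *Kif15*, *Gins2* and *Tk1* lie far out, *Kif23* and, nearer to 0, *Ndc80* lie at the lower left, and 42 of the 53 genes lie below the dashed line.

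The transcription factors were higher in both sets in 5 of 5 genes (35.9% of all genes), and 1 rose (20.0%, against 14.6% of all genes). *E2f2*, an activating E2F, had 61.0, 30.5, 65.2 and 41.0 CPM, without overlap, and rose by 0.83 ± 0.10 (adjusted p = 0.00105). *E2f1*, of the same class, had 6.27, 3.55, 5.10 and 4.70 CPM (0.46 ± 0.22). *E2f8*, a repressing E2F, had 2.69, 0.814, 1.34 and 1.02 CPM (1.06 ± 0.41, adjusted p = 0.102). *Foxm1*, an activator of mitosis genes, had 6.86, 5.10, 3.40 and 2.52 CPM (0.43 ± 0.19), and *Mybl2*, which encodes B-Myb, had 4.42, 3.70, 1.72 and 1.22 CPM (0.37 ± 0.25). For *Foxm1* and *Mybl2* both groups were lower in set 2 than in set 1. The cyclins that drive entry into S phase did not pass the test either. *Ccne1* had 6.15, 4.28, 5.08 and 4.85 CPM (0.29 ± 0.19) and *Ccne2* had 0.962, 0.626, 0.731 and 0.537 CPM (0.53 ± 0.45), both higher in Lrig1+ cells in both sets and without overlap between groups.

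Set beside each other, the mitosis genes had the higher median ratio in both sets (1.22 against 0.81 and 0.82 against 0.59), and 73.3% of them rose against 75.0% of the replication genes. Their ranges overlapped widely, from -0.46 to 2.42 and from 0.07 to 2.66 in set 1, and genes are not replicates, so the difference between the groups was not tested. On the FPKM scale, which divides by transcript length, 10 of the 53 genes had a mean of at least 10 over the 4 libraries, and 8 of these are *Pcna*, *Mcm2* to *Mcm7* and *Rrm1*. The mean was 113 for *Pcna*, 40.3 for *Mcm6* and 16.8 for *Cenpa*, while 19 genes were under 1, down to 0.125 for *Cenpf*. Across the 53 genes, which are not independent and share the same 4 libraries, the log2 mean FPKM and the mean log2 ratio had Pearson's r = -0.426 and Spearman's rho = -0.437, against -0.100 and -0.019 over all genes tested. Low counts also carry the larger counting error.

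**Figure D4:**
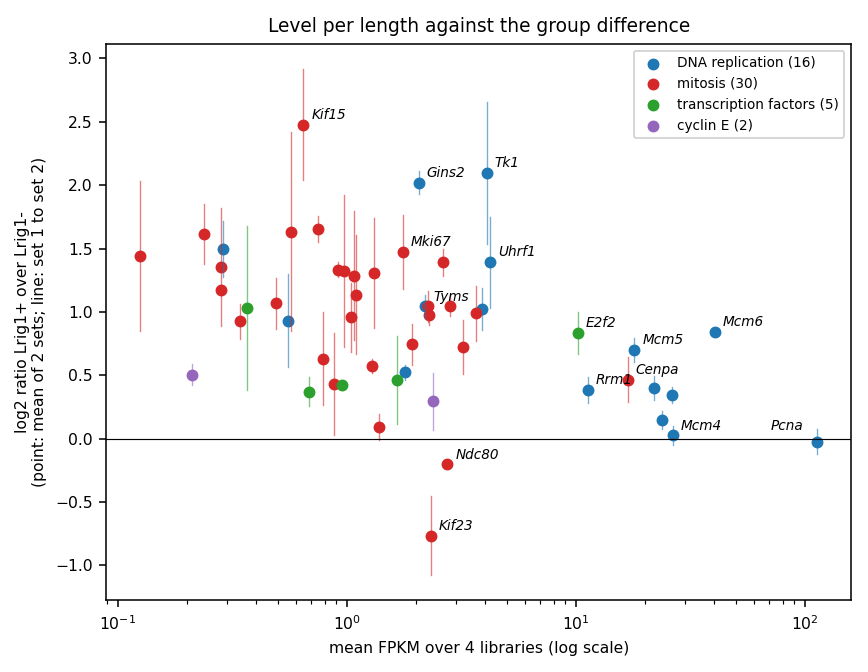
The x axis gives the mean FPKM over the 4 libraries (log scale) and the y axis the log2 ratio of Lrig1+ over Lrig1- cells, as the mean of both sets with a line from one set to the other, coloured by group. Genes above 10 FPKM stay under a log2 ratio of 1, with *Pcna* (113 FPKM) at about 0, and the widest spread is among the low genes.

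Within a role, genes with and without the letters had ratios of similar size, a difference that was not tested. Mitosis genes with CHR letters had median log2 ratios of 1.13 and 0.82 in the sets (20 genes) and those without had 1.32 and 0.88 (6 genes). Replication genes with E2F letters had 0.81 and 0.59 (6 genes) and those without had 0.81 and 0.72 (8 genes). *Kif15*, whose printed stretch holds both, is described above. *Kif23* and *Ndc80*, lower in Lrig1+ cells in both sets, hold CHR letters like most mitosis genes, beginning at bases 3 and 30 after the start.

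Further cell cycle genes, from hand-written lists that hold none of the 53, moved less. Of 49 further replication genes 26 were higher and 13 lower in both sets, 15 rose and 5 fell, and the median log2 ratio was 0.29 and 0.11. As shares these are 53.1% and 26.5%, against 35.9% and 41.3% of all genes, and 30.6% and 10.2%, against 14.6% and 12.8%, so that the share that fell was not above that of all genes. Those with the smallest p were *Chaf1a* of the chromatin assembly factor, which rose by 1.39 ± 0.20, the clamp loader subunit *Rfc3* (0.93 ± 0.13) and the ligase *Lig1* (0.66 ± 0.10). *Pole2*, a subunit of polymerase epsilon, *Dbf4*, the activator of the Cdc7 kinase, and the fork protection gene *Timeless* fell, by 0.84, 0.57 and 0.40 on the log2 scale.

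Of 64 further mitosis genes 52 were higher and 5 lower in both sets (81.2% and 7.81%, against 35.9% and 41.3% of all genes). With the set term 16 rose (25%) and 2 fell (3.12%), against 14.6% and 12.8%, so that the share that fell was not above that of all genes. The median log2 ratio was 0.65 and 0.47. *Cdc25b*, a phosphatase that activates Cdk1, had 109, 66.8, 97.9 and 65.0 CPM and rose by 0.65 ± 0.07. *Cks2*, a Cdk1-binding subunit, rose by 1.22 ± 0.16, and *Incenp*, the scaffold of the chromosomal passenger complex, rose by 0.64 ± 0.09. *Stmn1*, which destabilises microtubules, and *Hjurp*, the chaperone of Cenpa, fell, by 0.43 and 0.31, and *Kifc1* did not pass the test (-0.23 ± 0.09, adjusted p = 0.102). A further list of 18 regulators held genes of the E2F, RB and MuvB families and also *Myb*, *Mybl1* and *Myc*. Of these 18 genes 10 were higher and 5 lower in both sets (55.6% and 27.8%, against 35.9% and 41.3% of all genes). With the set term 5 rose (27.8%) and 1 fell (5.56%), against 14.6% and 12.8%. The share that fell was not above that of all genes. *Myb* rose by 1.19 ± 0.10, *Tfdp1*, the E2F partner, by 0.54 ± 0.08 and *E2f3* by 0.73 ± 0.12. *Lin54*, the MuvB subunit that reads CHR letters, fell by 0.47, and *Rbl1* and *Lin52* did not pass the test (-0.20 ± 0.09 and -0.20 ± 0.11).

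**Figure D5:**
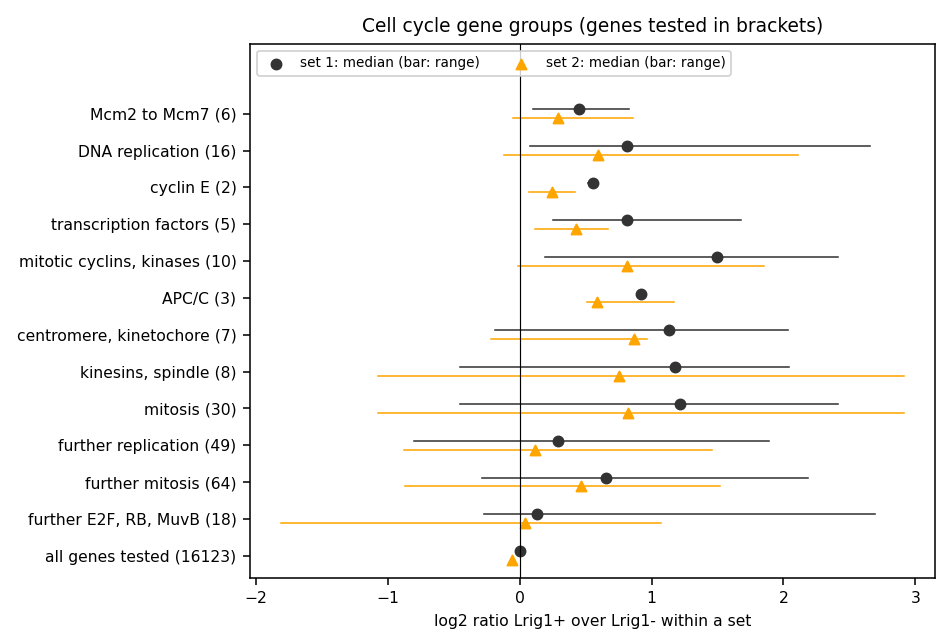
The x axis gives the log2 ratio of Lrig1+ over Lrig1- cells within a set, with circles for the median of each gene list in set 1, triangles for set 2 and bars from the lowest to the highest gene. The medians of the mitosis genes are 1.22 and 0.82 and those of *Mcm2* to *Mcm7* are 0.45 and 0.29, while all genes tested are near 0.

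Markers of T cell state and of other cells moved with the groups in part. *Cd4*, which defines the sorted cells, and *Cd3e* were level between groups (924, 936, 1064 and 1100 CPM for *Cd4*, and 472, 453, 632 and 594 CPM for *Cd3e*). The 12 T cell genes summed to 6022 and 5756 CPM in set 1 and to 8588 and 8585 CPM in set 2. Of them 7 were higher and 4 lower in both sets (58.3% and 33.3%, against 35.9% and 41.3% of all genes). *Zap70* and *Cd5* rose, by 0.52 ± 0.08 and 0.39 ± 0.09, and 0 of the 12 fell. The 10 Treg genes were higher in both sets in 10 of 10, with a sum of 2487 against 256 CPM in set 1 and 2363 against 203 CPM in set 2, and *Foxp3* itself had 589, 48.9, 615 and 30.7 CPM. The 7 naive T cell genes were lower in both sets in 7 of 7. The part of this difference in T cell state in the cell cycle result was not tested.

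Other dividing cells of the spleen leave markers of their own. The 10 B cell genes summed to 98.3 and 78.5 CPM in set 1 and to 391 and 775 CPM in set 2. Of the 10, 0 were higher and 7 lower in both sets, and *Cd79a* had 11.0, 11.2, 87.5 and 182 CPM. Those higher in Lrig1+ cells in set 1 were *Cd22* (32.8 and 16.2 CPM), *Cd79b* (13.5 and 6.85 CPM) and *Fcer2a* (5.13 and 4.43 CPM). The median log2 ratio of the 10 genes in set 1 was -0.08. The 7 germinal centre genes with a value summed to 116 and 65.8, and 122 and 73.4 CPM, with 4 of 7 higher and 1 of 7 lower in both sets. Nearly all of each sum came from *Bcl6* (58.4, 29.6, 51.1 and 26.8 CPM), *Fas* (32.5, 22.5, 39.1 and 29.4 CPM) and *S1pr2*. *S1pr2*, which T follicular helper cells also express, had 24.2, 12.7, 30.4 and 15.5 CPM. The rest of the list had at most 1.00 CPM, with *Mybl1* lower in both sets. The 11 erythroid genes summed to 69.0 and 73.3, and 136 and 150 CPM, with 2 of 11 higher and 4 of 11 lower in both sets. *Tfrc* made up most of the sums of set 1, with 55.6, 59.3, 42.5 and 39.1 CPM, and *Hba-a1* had 3.27, 3.26, 23.5 and 28.8 CPM. Plasma cell genes summed to 74.7 and 57.4, and 187 and 209 CPM, with 3 of 6 higher and 2 of 6 lower in both sets. Most of the sums of set 1 came from *Xbp1* (51.9 and 36.3 CPM) and *Prdm1* (17.5 and 16.4 CPM). The other plasma cell genes had at most 3.33 CPM in set 1. Myeloid genes summed to 47.5 and 79.9, and 197 and 246 CPM (*Lyz2* 10.6, 7.52, 66.7 and 95.5 CPM), with 2 of 12 higher and 5 of 12 lower in both sets. The higher genes, named after their values were seen, were *Csf1r*, the receptor of a macrophage growth factor, which rose by 1.04 on the log2 scale, and *Cd14*, which did not pass the test (0.49 ± 0.40). NK and CD8 genes summed to 41.0 and 76.2, and 128 and 271 CPM, lower in Lrig1+ cells in 8 of 8. The sums of B cell, plasma cell, erythroid, myeloid, and NK and CD8 genes were lower in Lrig1+ cells in set 2. In set 1 those of the B cell and plasma cell genes were higher and the others lower. The sum of the germinal centre list was higher in Lrig1+ cells in both sets. The part of these lists in the cell cycle result was not tested.

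The loci of 14 of the 53 genes overlap another gene with counts. The libraries were made with a stranded kit, but the sources used here do not say whether the counting used the strand, so reads of overlapping genes may have been divided between them. Among them are *Tk1*, which shares 585 bases with *Afmid*, *Kif20a*, which shares 4930 bases with *Cdc23*, and *Gins2*, which shares 118 bases with *Gse1*. Without the 14 genes, a choice made after seeing the data, 26 genes were called higher and 1 lower with the set term. Of all genes tested, 14.6% were called higher and 12.8% lower.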

How the data were processed

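RNA was sequenced by the authors as paired-end reads from stranded mRNA libraries. Per the submitters' processing notes, the tools were Trimmomatic 0.38, HISAT2 2.1.0, Bowtie2 2.3.4.1 and StringTie 2.1.3b, with the builds GRCm38 and mm10. For 129299 RefSeq transcripts of 45777 genes, estimated counts were made by the authors for each library and deposited without normalization. The FPKM values were deposited beside them and are scaled by the authors to transcript length and mapped fragments. The labels list 6 samples, 3 per group. Only 4 libraries were used, because 6 columns of per-sample values in a further table do not name the group and were left out. The column names of the tables used give the group but no replicate number.

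Estimated counts were summed per gene symbol and rounded. The software was R 4.3.3 with edgeR 4.0.16. Low counts were removed with filterByExpr, libraries were scaled by TMM, and groups were compared by the quasi-likelihood test with Benjamini-Hochberg adjustment over the 16123 genes tested. The main test had no covariate. The set term, a factor that tells the tables apart, was an alternative. Further alternatives were DESeq2 1.42.0 for the size factors alone and for its Wald test, edgeR's exact test, other filters on low counts, limma 3.58.1 on log2 FPKM with a pseudocount of 1 or 0.1, the tables without 390 immunoglobulin genes, and each library left out in turn. A prior count of 2 was added for the log2 ratio of each set. Of the 53 loci, 52 have the start and end that RefSeq gives for GRCm38. The procedure was tested on data simulated with 1 spread for all genes, taken from the fit with the set term. The main test called 0% of the planted log2 changes of 1 and 0% of those of 2. The fit with the set term called 83% and 91% of them, and 2.2% of its calls were false. Each simulated gene had its own mean in each set, as that fit assumes, and the same spread as all others. These shares therefore favour that fit and are not its rates on the real libraries. Files were read with Python 3.11.15. The library totals, from 44865070 to 59977951 estimated counts, cover counting error only.

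The genes and lists were chosen with earlier results of these data known. Named with full values were *Mki67*, *Top2a*, *Pcna*, *Mcm2* to *Mcm7*, *Cdk1* and the cyclins, up to 3 genes of each role with the smallest p in the fit with the set term, and genes opposite to their role in both sets. Of the further lists, up to 3 genes with the smallest p in each direction were named, and of the marker lists *Cd4*, *Cd3e*, *Foxp3*, *Cd79a*, *Hba-a1* and *Lyz2*. Some marker genes are not reported here. Other genes named were chosen after their values were seen. *Gcet2* and *Ahsp* were not matched by symbol and *Tnfrsf17* did not pass the filter.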

Additional observations from a re-analysis of the deposited data

How the results depend on the processing

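Counts of calls moved most with the model. The table block (the set term) called 2358 genes higher and 2056 lower, of them 35 and 1 of the 53, and at an adjusted p under 0.1 it called 2954 and 2824, of them 37 and 1. The DESeq2 Wald test called 260 and 50 (1 of the 53, higher) and edgeR's exact test 179 and 14. Without the 14 members that overlap another gene, chosen after seeing the data, the table block called 26 and 1. The median log2 fold change over all libraries was 0.77 for the replication genes, 1.04 for the mitosis genes and 0.95 for all 53. With limma on log2(FPKM + 1) these were 0.41, 0.51 and 0.43, since the pseudocount compresses low genes, and the replication median was 0.59 in set 2 alone. With each library left out in turn, in fits without a set term that let the difference between sets enter, the medians ran from 0.53 to 1.06, from 0.73 to 1.30 and from 0.68 to 1.15, and the genes called higher from 0 to 44. The largest of these counts came without the Lrig1- library of set 1. Some single genes turned sign. *Mcm4* was -0.0014 with DESeq2's size factors and with its Wald test, and *Pcna* was 0.0264 and 0.0267 with limma at a pseudocount of 1 and 0.1. Under the libraries left out, the log2 fold change ran for *Pcna* from -0.44 to 0.47, for *Foxm1* from -0.14 to 1.06, for *Mybl2* from -0.50 to 1.36, for *Mki67* from -0.25 to 3.16, for *Cenpe* from -0.35 to 3.03, for *Mcm4* from -0.19 to 0.30, for *Rrm1* from -0.11 to 0.95 and for *Aurka* from -0.33 to 0.59. The cause of these reversals was not tested. The lowest values of *Mki67*, *Cenpe*, *Foxm1* and *Mybl2* came without the Lrig1+ library of set 1, and those of *Pcna*, *Mcm4*, *Rrm1* and *Aurka* without the Lrig1+ library of set 2. All other values of the 53 genes kept their direction under the alternatives run. No paired analysis was possible because the columns carry no replicate numbers. This refers only to pairing by replicate number. The set term does pair the libraries, by table, since each table holds 1 Lrig1+ and 1 Lrig1- library. Every gene said to have risen or fallen rests on that pairing. The sources used here do not say that the libraries of a table share mice or a day, so pairing by table is an assumption.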

Other observations

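Several of the 53 genes also differed between sets. *Mki67* was 6.69-fold higher in set 1 than in set 2 in CD4+Lrig1+ and 4.48-fold higher in CD4+Lrig1- T cells, *Cenpe* 7.37-fold and 3.95-fold, and *Cenpf* 5.31-fold and 2.36-fold. *Mybl2* was 2.57-fold and 3.02-fold higher in set 1, and *Foxm1* 2.02-fold in both groups. The opposite held for *Ube2c* (0.313 and 0.366 of the level in set 2), *Cdkn3* (0.458 and 0.361), *Ccnb1* (0.540 and 0.258) and *Cdk1* (0.546 and 0.174). These genes were chosen after their values were seen. *Cenpf*, *Mki67* and *Cenpe* have long transcripts, with count-weighted lengths of 11130, 9991 and 7813 bases, and *Ube2c* and *Cdkn3* short ones, of 931 and 802 bases. Across the 53 genes, log2 transcript length and the log2 ratio of set 2 over set 1 had Pearson's r = -0.595 and Spearman's rho = -0.481, against -0.319 and -0.492 over 15117 genes with counts in every library. The same length and the log2 ratio of the groups had r = 0.108 and rho = 0.209 over the 53. These values are across genes that share the same 4 libraries, and the cause of the difference between sets was not tested.

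The ratio of the groups was larger in set 1 for 42 of the 53 genes, 24 of 30 mitosis and 12 of 16 replication genes, against 64.4% of all genes tested. Across the 53 genes the log2 ratios of the sets, which share no library, had Pearson's r = 0.717 and Spearman's rho = 0.763, with 0.854 and 0.900 among the replication genes and 0.671 and 0.620 among the mitosis genes, against 0.736 and 0.693 over all genes tested. Transcripts of a gene did not always move together between libraries. The shorter *Birc5* transcript (972 bases) had 115, 19, 249 and 117 estimated counts and the longer one (3416 bases) had 61, 58, 2 and 9. Such divisions rest on the authors' assembly.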
